A study of Mus musculus with 2207 samples.

Results

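The nuclei described here are the *Casp1*-positive neurons of the mouse cortex, that is, the nuclei labelled Neuron whose *Casp1* value was above 0. They made up 8.83% of the 1664 neurons (exact 95% interval 7.51% to 10.3%), among 2207 nuclei in all, and they were set against the 1517 *Casp1*-negative neurons of the same 6 pools. The members were selected on their *Casp1* RPKM, so that value is given below as a description only, and every comparison concerns other genes.

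*Casp1* encodes caspase-1, the protease that inflammasomes activate and that cuts pro-interleukin-1β, pro-interleukin-18 and gasdermin D. In the brain it is best known from microglia. *Ehmt1* encodes GLP, which with G9a deposits dimethylation on histone H3 lysine 9, a mark of silent genes, and loss of 1 copy models Kleefstra syndrome. Cortical excitatory neurons fall into layers that differ in their projections and their marker genes, with *Cux1* and *Cux2* in the upper layers and *Foxp2*, *Tle4* and *Bcl11b* in the deep layers.

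Nuclei came from the cortex of C57BL/6 mice (C57BL6/J in the study's methods) of 14 weeks that had all been given 2 doses of tamoxifen of 100 mg/kg when 3 weeks old, and each nucleus was measured by RamDA-seq, a full-length single-nucleus RNA-seq method with random priming. The 2 pools in 96-well plates were WT (*Ehmt1*+/+) and *Ehmt1*Δ/+. The 4 pools in 384-well plates all carried the inducible *Ehmt1* transgene (*Ehmt1* iTg), which a Cre recombinase switches on. The pools called WT and *Ehmt1*Δ/+ there lacked CamKII-CreER, which drives Cre in forebrain neurons, and the pools called iTg (*Ehmt1*+/+) and *Ehmt1*Δ/+; iTg carried it. Each pool combined 3 mice whose nuclei the labels do not separate. Pools therefore served as the replicates, with 1 pool for each genotype in each plate format. Per-pool values below follow the order WT and *Ehmt1*Δ/+ in 96-well plates, then, in 384-well plates, WT and *Ehmt1*Δ/+ without CamKII-CreER followed by iTg without and with the *Ehmt1*Δ/+ allele. Mean *Ehmt1* RPKM (reads per kilobase of gene length, scaled to the read total of the nucleus) in neurons was 18.7, 31.2, 19.5, 31.7, 20.7 and 33.9, so whole-gene *Ehmt1* RNA was higher, not lower, in the 3 pools labelled *Ehmt1*Δ/+. The value covers the gene as a whole rather than its deleted stretch, and directions by genotype below rest on the labels.

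The members numbered 23, 57, 15, 33, 7 and 12 by pool, which was 9.09%, 21.5%, 5.26%, 10.8%, 2.55% and 4.29% of the neurons there. In the pools with CamKII-CreER the exact 95% intervals were 1.03% to 5.17% for iTg and 2.23% to 7.37% for *Ehmt1*Δ/+; iTg, and intervals here cover counting error only. The threshold lay at the detection limit. Of the members, 45 (30.6%) had exactly 1 *Casp1* read, at 0.921 to 4.22 RPKM, and the others (69.4%) had 2.30 to 39.8 RPKM, while every neuron outside the group was at 0. The median member had 2 *Casp1* reads and the highest had 22. In the 96-well plates *Casp1* was above 0 in 80 of 518 neurons (15.4%, interval 12.4% to 18.8%, median 349150 reads). There it was above 0 in 45 of 68 microglia (66.2%, 53.7% to 77.2%, median 502838 reads). It was above 0 in 1 oligodendrocyte (0.694% of them, 0.0176% to 3.81%, median 462938 reads). Both glial types were thus deeper than the neurons in that format. In the 384-well plates they were far shallower, with medians of 42184 reads in microglia and 52666 in oligodendrocytes against 358045 in neurons. *Casp1* was above 0 there in 17 of 78 microglia (21.8%, 13.2% to 32.6%), in 0% of oligodendrocytes and in 5.85% of neurons.

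The members had the markers of neurons, as their label implies, since the authors assigned cell types from clusters and marker genes. The values here therefore describe the members and do not test their identity. *Snap25*, which encodes a synaptic fusion protein, was above 0 in 100% of members (exact interval 97.5% to 100%). None of the 8 neuron identity genes was called in the fit described below, beside 1.42% of all genes tested. The mean of *Snap25* over pools was 101.9 ± 34.8 RPKM (SD, n = 6 pools) in members and 94.7 ± 33.8 in *Casp1*-negative neurons. *Ctss*, a cathepsin that marks microglia, was above 0 in 2 members (1.36%) and 17 of 1517 *Casp1*-negative neurons (1.12%). *Olig1*, which marks the oligodendrocyte lineage, was above 0 in 11 members (7.48%) and in 100 *Casp1*-negative neurons (6.59%). By contrast, *Ctss* was above 0 in 95.2% of *Casp1*-positive microglia and *Olig1* in 89.4% of oligodendrocytes.

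Members and other neurons of the same pool differed in median depth by log2 ratios of -0.28 (384-well WT) to 0.52 (iTg). The median read total of members was 365336, 352967, 326758, 426711, 554985 and 334842, against 342627, 351618, 395537, 351492, 387681 and 323273 in *Casp1*-negative neurons. The log2 ratio of medians was 0.11 ± 0.27 (SD, n = 6 pools) and above 0 in 5 pools, which did not pass the two-sided exact sign-flip permutation test (p = 0.281, the smallest p possible being 0.031). When only members with at least 2 *Casp1* reads were kept, the log2 ratio was 0.15. It was above 0 in every pool, with an exact p of 0.031 in the same test. A deeper nucleus reaches 2 reads more easily, so this selection itself favours deeper nuclei. The test cannot separate a difference in depth from that selection. The number of genes detected at a fixed number of reads differed by a log2 ratio of 0.02 ± 0.04 (higher in 4 of 6 pools, exact p = 0.375). Mitochondrially encoded RNA, a sign of cytoplasm on nuclei, was lower in members in 5 of 6 pools, with a log2 ratio of -0.27 ± 0.37 (exact p = 0.156). To even out depth in results below, nuclei with enough reads were thinned to a fixed number of reads. Where members are compared with other neurons, membership still rested on the unthinned *Casp1* value. Thinning there does not measure how depth decides which neurons are members.

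**Figure D1:**
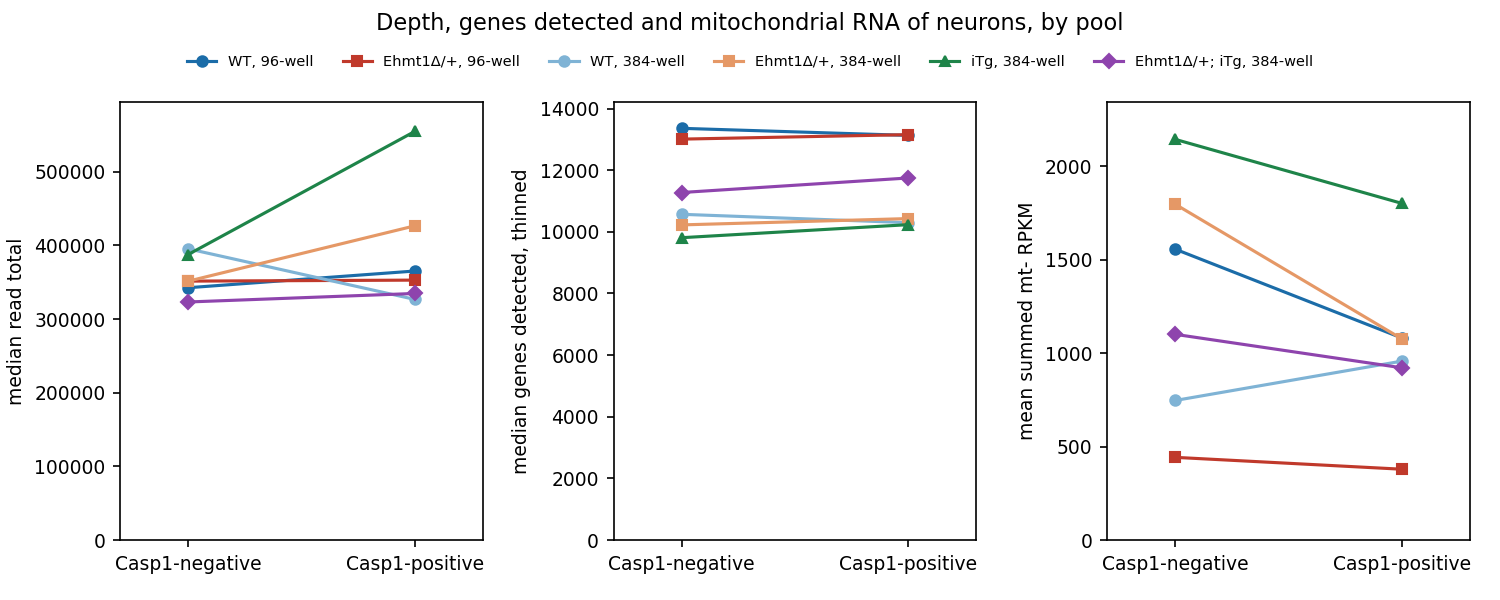
Median read total, median number of genes detected after thinning to a fixed number of reads, and mean summed RPKM of mitochondrially encoded genes in *Casp1*-negative and *Casp1*-positive neurons, with 1 line per pool and all axes from 0. The lines cross between pools and none of the 3 measures passed the exact test over 6 pools (p = 0.281, 0.375 and 0.156).

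Most members were excitatory. With excitatory defined as *Slc17a7* (the vesicular glutamate transporter VGLUT1) above *Gad1* (the GABA-synthesising enzyme), 85.7% of members were excitatory. Their share was 86.96%, 85.96%, 80%, 93.9%, 71.4% and 75% by pool, against 74.3%, 82.2%, 73.3%, 81.3%, 80.2% and 82.5% of *Casp1*-negative neurons. The share was higher in members in 4 pools and lower in both CamKII-CreER pools, which hold 7 and 12 members, and the mean difference of 3.23 ± 9.46 percentage points did not pass the exact test (p = 0.406). In the 21 other members *Gad1* was at or above *Slc17a7*, and in 1 of them both were at 0. *Gad1* was above 0 in 20 of them, the interneuron peptide gene *Sst* in 12 (57.1%), *Pvalb* (parvalbumin) in 6 (28.6%), *Vip* in 2 (9.52%) and *Lamp5* in 8 (38.1%). Among the *Casp1*-negative neurons of that class, *Sst* was above 0 in 40.8%, *Pvalb* in 36.7%, *Vip* in 15.05% and *Lamp5* in 36.99%. With 21 such members these shares have wide intervals, such as 34.02% to 78.2% for *Sst*.

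Across the genome, members carried more RNA of the upper-layer genes *Cux1* and *Cux2* and less of the deep-layer genes *Foxp2*, *Syt6* and *Bcl11b* than the *Casp1*-negative neurons of their own pool. Of 21754 genes tested, 0.57% were higher and 0.846% lower, or 1.42% in all, at a Benjamini-Hochberg adjusted p under 0.05 by limma on pool means with the pool as a block. The same sign in all 6 pools was found for 3.57% of genes in the higher and 5.95% in the lower direction. At an unadjusted p under 0.05 there were 1115 higher and 1979 lower genes. The median log2 difference over all genes tested was -0.06, and 39.6% of genes were above 0. The split of calls depended on how nuclei were averaged. Higher genes made up 40.3% of the calls from mean RPKM and 69.2% of the calls from the mean of each nucleus's log2(RPKM + 1). The number of calls moved with the pools included. It fell to 17 genes (0.0781%) without the 96-well *Ehmt1*Δ/+ pool, to 31 (0.143%) without the 384-well *Ehmt1*Δ/+ pool, to 50 and 56 (0.230% and 0.257%) without the 96-well and the 384-well WT pool and to 0.519% without *Ehmt1*Δ/+; iTg, and it rose to 539 (2.48%) without iTg. Each called gene kept its direction in each of these 6 refits, but each refit shares 5 pools with the fit that called the genes, so the sign could hardly change. After thinning to a fixed number of reads, all but 40 of the called genes could be tested, all but 1 of those kept their direction and 86 were still called, out of 96 calls in all.

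**Figure D2:**
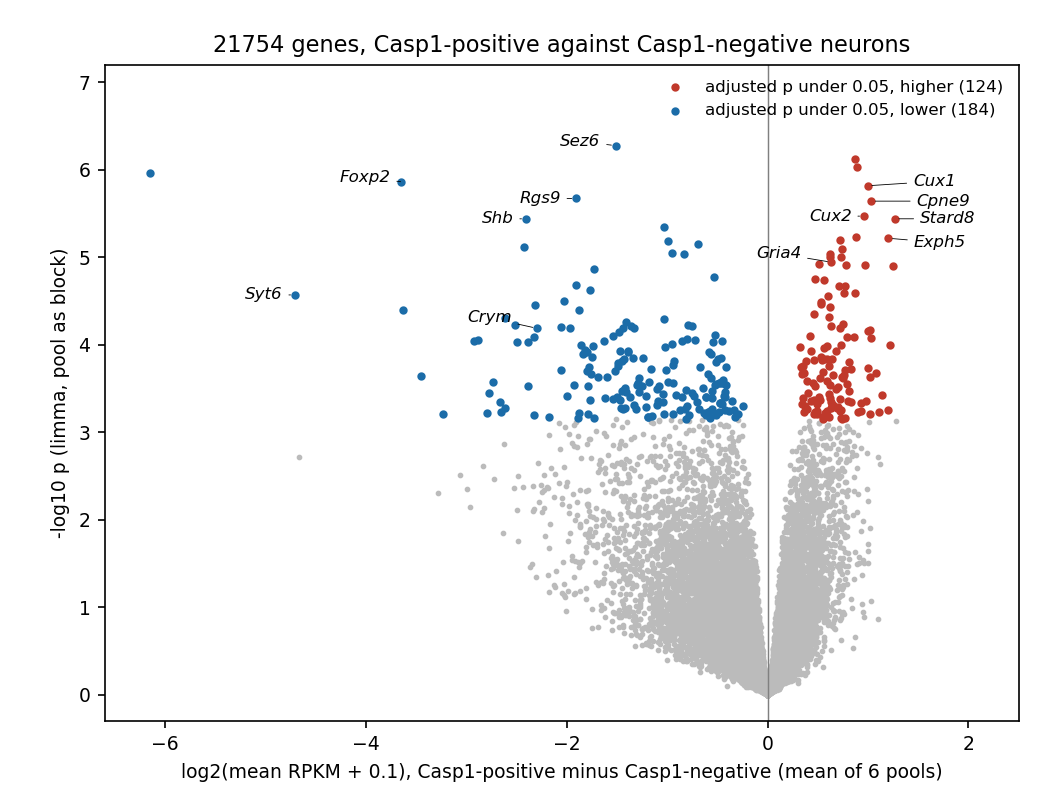
Each of 21754 genes as a point, with the log2 difference between *Casp1*-positive and *Casp1*-negative neurons (mean of 6 pools, log2 of mean RPKM + 0.1) on the x axis and -log10 of the unadjusted limma p on the y axis. The higher calls (red, 0.57% of genes) lie within a narrower range of differences than the lower calls (blue, 0.846%), among which *Syt6* (-4.71) and *Foxp2* (-3.66) stand far to the left.

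Of the 7 genes on the layer 2/3 list 3 were called higher and none lower, with a median log2 difference of 0.79, beside -0.06 over all genes. *Cux1*, a homeobox factor of upper-layer neurons (chr 5, 136248135 to 136567490, mm10), was at 13.3, 11.99, 18.8, 19.5, 22.8 and 19.3 RPKM in members and at 6.90, 6.33, 10.3, 9.02, 9.37 and 10.3 in *Casp1*-negative neurons. Members were higher in each of the 6 pools, and every member mean lay above every mean of the other neurons. The log2 difference was 0.998 ± 0.08 (SE, adjusted p = 0.0055). Its paralog *Cux2* (chr 5, 121856366 to 122050102) was at 20.4, 18.2, 51.2, 64.2, 44.7 and 36.7 RPKM in members against 9.10, 9.50, 30.1, 27.6, 28.3 and 18.1. It was higher in 6 of 6 pools (log2 0.96 ± 0.09, adjusted p = 0.0072), although its level also differed between the plate formats, so that the 2 sets of means overlap across pools. *Cux2* was above 0 in 91.8% of members (exact interval 86.2% to 95.7%) and in 1051 of 1517 *Casp1*-negative neurons (69.3%, 66.9% to 71.6%).

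*Rasgrf2*, a Ras exchange factor of superficial neurons, was the third layer 2/3 gene called (log2 0.73 ± 0.13, adjusted p = 0.046), but it missed the threshold after thinning (adjusted p = 0.11). The homeobox gene *Lhx2* (0.79, adjusted p = 0.054) and *Calb1*, which encodes calbindin (0.81, adjusted p = 0.087), were above 0 in 6 of 6 pools and did not pass the threshold. *Lhx2* was above 0 in 76.9% of members and in 45.2% of *Casp1*-negative neurons. *Otof* and *Wfs1*, the remaining members of the list, were at -1.56 and -0.76, and neither was called. In excitatory neurons alone the list had 4 of 7 genes called higher, and the median was 0.86.

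The layer 4/5a genes did not pass the threshold as single genes, with 0 of 7 called, beside 1.42% of all genes tested, and a median of -0.10. *Rorb*, a nuclear receptor of layer 4, was at 13.3, 11.8, 13.7, 5.82, 3.90 and 8.41 RPKM in members and at 5.45, 4.76, 4.32, 4.06, 4.10 and 5.80 in *Casp1*-negative neurons. It was higher in 5 of 6 pools, by 0.51 to 1.64 log2 units, and not in iTg, where the difference was -0.07 (log2 0.86 ± 0.22 over pools, adjusted p = 0.13). *Rspo1*, a Wnt-enhancing ligand, was likewise higher in the 5 pools other than iTg, with 1.003 ± 0.36 (adjusted p = 0.26), and in iTg it was at 2.79 RPKM in members against 5.15. By detection, *Rorb* was above 0 in 88 members (59.9%, 51.5% to 67.9%) against 568 *Casp1*-negative neurons (37.4%, 35% to 39.9%), and *Rspo1* in 69 (46.9%, 38.7% to 55.3%) against 320 (21.1%, 19.1% to 23.2%).

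On the layer 6 list 7 of 11 genes could be tested, and 4 were called lower and none higher, with a median of -2.05. *Foxp2*, a forkhead factor of layer 6 corticothalamic neurons (chr 6, 14901349 to 15441977), was at 0.263, 0.334, 0, 0.00774, 0 and 0 RPKM in members and at 2.03, 3.83, 1.43, 2.07, 1.01 and 2.11 in *Casp1*-negative neurons. Each member mean lay below every mean of the other neurons, and 3 of the 6 were listed at 0. The log2 difference of -3.66 ± 0.29 (adjusted p = 0.0055) is on the log2(RPKM + 0.1) scale and its size depends on that 0.1: with 1 added it was -1.44, and it was called at either value. *Foxp2* was above 0 in 13 members (8.84%, 4.79% to 14.6%) and in 446 *Casp1*-negative neurons (29.4%, 27.1% to 31.8%). *Syt6*, a synaptotagmin of layer 6, was at 1.93, 0.586, 0.115, 0.0449, 0.0320 and 0.0308 RPKM in members against 6.88, 10.1, 6.67, 9.77, 5.72 and 8.58. The means did not overlap (log2 -4.71 ± 0.55, adjusted p = 0.015, and -2.72 with 1 added). *Syt6* missed the threshold without the *Ehmt1*Δ/+ 96-well pool, without the WT or without the *Ehmt1*Δ/+ 384-well pool (adjusted p = 0.055, 0.061 and 0.062). The corepressor *Tle4* (-1.68 ± 0.27, adjusted p = 0.034) and the heparan sulfate sulfotransferase gene *Hs3st4* (-1.75 ± 0.26, adjusted p = 0.028) were the others called.

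On the layer 5b list 5 of 6 genes could be tested and 2 were called lower, with a median of -1.76. *Bcl11b* (CTIP2), a zinc finger factor of subcortically projecting neurons, was at 2.39, 1.09, 4.85, 1.17, 1.92 and 4.21 RPKM in members against 6.49, 6.44, 8.67, 8.73, 8.15 and 8.70. It was lower in every pool (log2 -1.76 ± 0.28, adjusted p = 0.033), with no overlap of the means. *Crym*, which encodes the thyroid hormone binding protein μ-crystallin, was lower in 6 of 6 pools as well (-2.30 ± 0.31, adjusted p = 0.022). *Fezf2*, the factor that specifies these neurons, was lower in every pool but spread widely (1.86 ± 1.89 RPKM in members and 7.99 ± 1.09 in other neurons, SD, adjusted p = 0.12). None of the 3 near-projecting genes tested was called, beside 1.42% of all genes tested, with a median of -0.62.

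**Figure D3:**
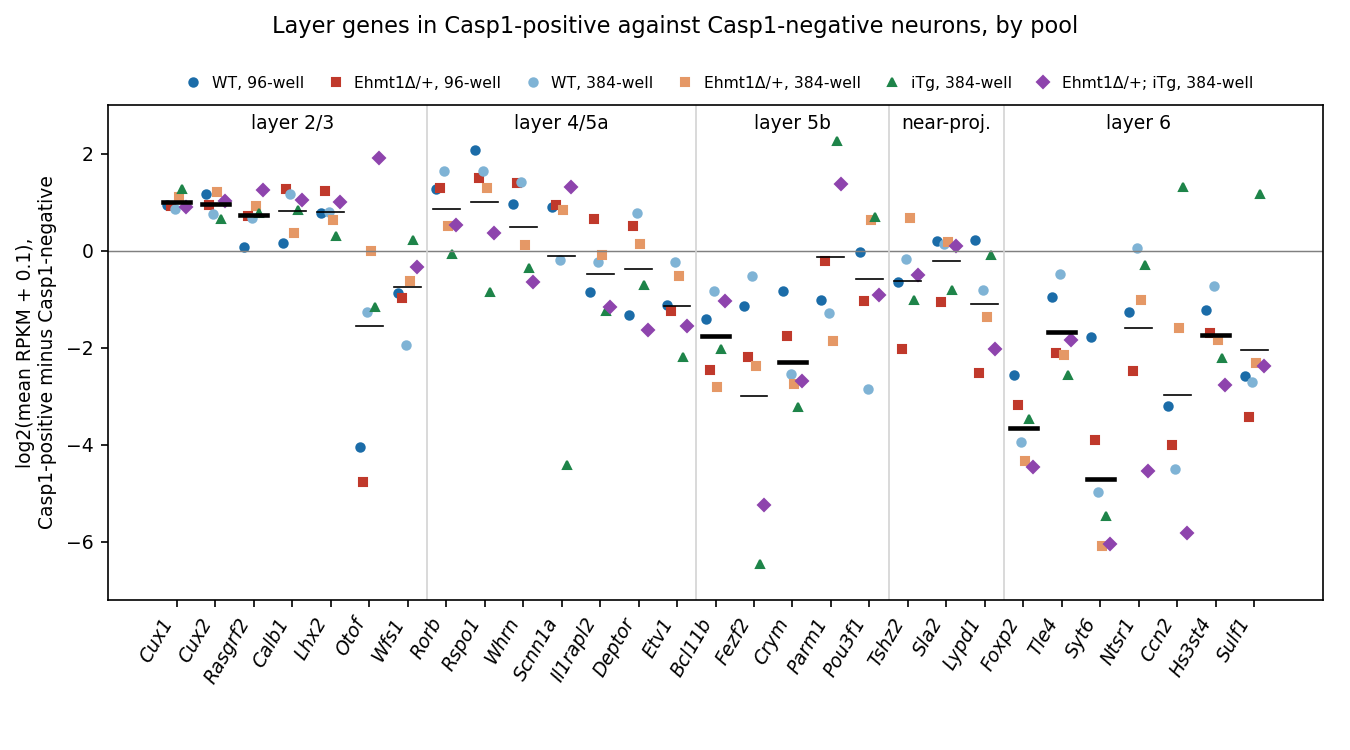
Log2 difference between *Casp1*-positive and *Casp1*-negative neurons of the same pool for the 29 tested genes of the layer lists, with 1 point per pool and a bar for the mean of 6 pools, thick where limma called the gene. *Cux1* and *Cux2* lie above 0 in every pool (means 0.998 and 0.96), while *Foxp2*, *Syt6*, *Bcl11b* and *Crym* lie below 0 in every pool.

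Differences in the same direction were found when only excitatory neurons were compared. There, 399 of 21754 genes were called (1.83%), with 0.772% of genes higher and 1.06% lower. All but 2 of the genes called among all neurons had the same direction, and 67.5% were called again. Most neurons of both groups were excitatory, so this fit reuses most of the nuclei that called the genes and the sign could hardly change. *Cux1* was at 1.13 (adjusted p = 0.0026), *Cux2* at 1.10 (0.0026), *Foxp2* at -3.45 (0.0026) and *Bcl11b* at -2.47 (0.024) in this limma fit. Among excitatory neurons with *Cux2* above 0, where members numbered 4 to 45 per pool, 69 genes were called and *Cux1* (0.79, adjusted p = 0.034), *Foxp2* (-2.91, 0.027) and *Syt6* (-4.11, 0.027) were still among them. With *Rorb* above 0 in addition to excitatory identity, 22 genes were called and members numbered 1 to 37 per pool. *Foxp2* was then at -2.73 (adjusted p = 0.062) and *Cux1* at 0.59 (0.086). Both of these restrictions were chosen after the data had been seen.

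Read the other way, the share of neurons with *Casp1* above 0 differed between marker classes, and it is given as a description, since *Casp1* chose the members. It was above 0 in 13.2% of 863 excitatory neurons with *Cux2* above 0 (exact interval 11.02% to 15.7%) and in 12 of 461 with *Cux2* at 0 (2.603%, 1.35% to 4.50%), at median read totals of 356203 and 353058. By pool, the first share was 12.7%, 32.1%, 7.52%, 16.7%, 3.13% and 5.48%, and the second was 4.08%, 5%, 2.597%, 2.53%, 1.09% and 1.19%. The share was thus higher with *Cux2* in 6 of 6 pools. It was above 0 in 98 of 598 excitatory neurons with *Bcl11b* at 0 (16.4%, 13.5% to 19.6%) and in 28 of 726 with *Bcl11b* above 0 (3.86%, 2.58% to 5.53%). For *Foxp2* the shares were 12.02% of 940 without it (10.01% to 14.3%) and 13 of 384 with it (3.39%, 1.82% to 5.72%), and 9 of these 13 were in the 96-well *Ehmt1*Δ/+ pool. Among the excitatory neurons with *Foxp2* above 0 and *Cux2* at 0, 3 were members (1.41%, 0.291% to 4.06%). Excitatory neurons with *Cux2* but without *Rorb* held 34 members (9.37% of them, 6.57% to 12.8%), so members were not limited to *Rorb*-positive nuclei. With *Rorb* above 0 the share was 85 of 617 (13.8%, 11.2% to 16.8%). Neurons that were not excitatory had 21 members of 340 (6.18%, 3.86% to 9.29%). After thinning, the shares were 10.7% with *Cux2* and 0.969% without it.

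**Figure D4:**
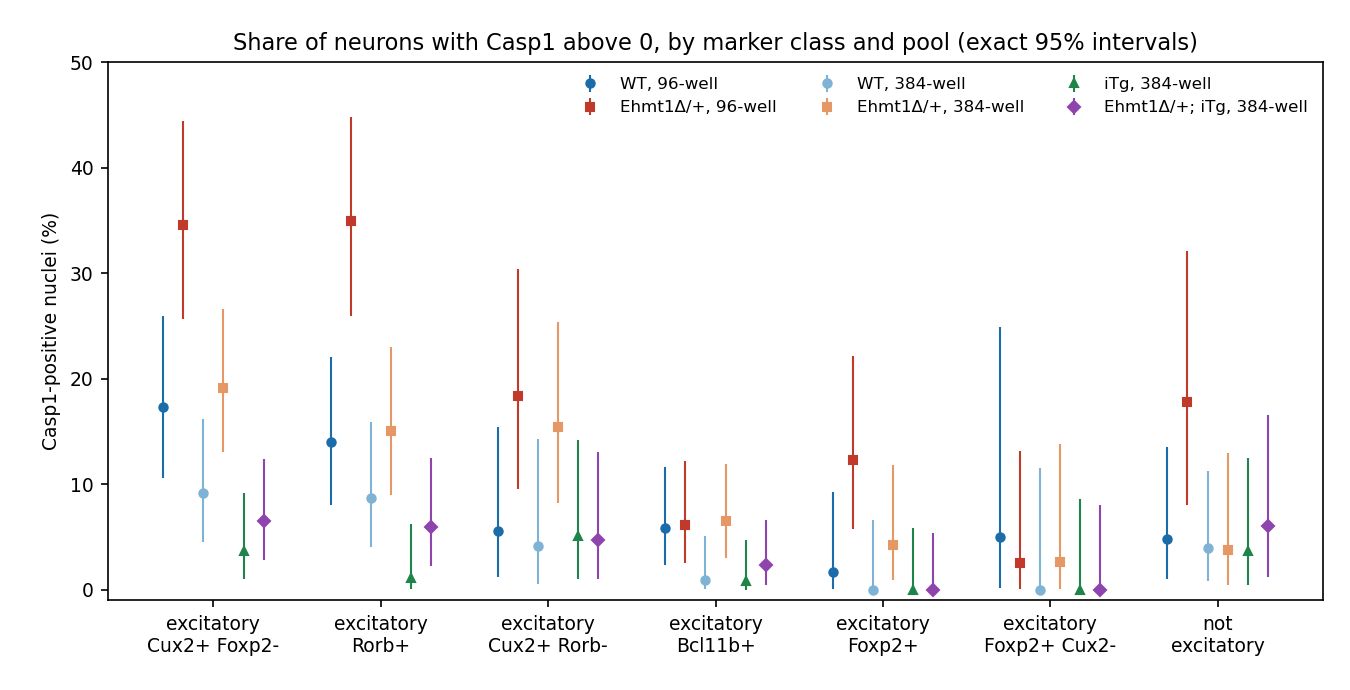
Percentage of neurons with *Casp1* above 0 in classes set by marker genes, with 1 point per pool and exact 95% intervals, which cover counting error only. Excitatory nuclei with *Cux2* above 0 and *Foxp2* at 0 reach 34.6% in the 96-well *Ehmt1*Δ/+ pool, and those with *Foxp2* above 0 and *Cux2* at 0 lie at 5% or lower in every pool.

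The highest-ranking genes outside the layer lists were led by *Cpne9*, a copine (a calcium-dependent membrane-binding protein). It was at 37.5, 37.8, 42.7, 43.4, 41.02 and 39.96 RPKM in members and at 13.6, 17.9, 21.9, 21.4, 23.1 and 22.02 in *Casp1*-negative neurons. The means did not overlap and the difference was 2.05-fold (log2 1.03 ± 0.09, adjusted p = 0.0062). *Stard8*, a GTPase-activating protein, was at 12.5 ± 5.41 RPKM (SD, n = 6 pools) against 4.97 ± 1.60 (log2 1.27, adjusted p = 0.0072). *Rims3*, an active-zone protein of the presynapse, was at 40.1 ± 5.92 against 21.6 ± 2.04 (0.88, 0.0088), and *Exph5*, a Rab27 effector, at 8.10 ± 1.24 against 3.44 ± 0.336 (1.20, 0.0088). *Kctd16*, an auxiliary subunit of the GABA-B receptor, *Cacna2d3*, an auxiliary calcium channel subunit, and *Camk2n1*, an inhibitor of CaM kinase II, were higher by 0.72, 0.62 and 0.73. *Bmp1*, a secreted metalloprotease, and *Vmn2r87* of the vomeronasal receptor family were higher by 0.62 and 0.74, and *Vmn2r87* has close relatives with which it may share reads. *Camk2a*, the kinase of excitatory synapses, was 1.25-fold higher (0.32, adjusted p = 0.025). *Lamp5*, which marks both an interneuron subclass and superficial excitatory neurons, was at 28.3 ± 4.03 RPKM against 16.5 ± 0.597 (0.76, adjusted p = 0.014) and was also higher among excitatory neurons alone (0.76, adjusted p = 0.03).

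The lowest-ranking genes outside the layer lists were led by *Sez6*, a dendritic complement-domain protein. It was at 10.8, 8.40, 20.6, 19.4, 22.2 and 14.4 RPKM in members against 29.3, 32.1, 50.2, 61.6, 48.5 and 46.2 in *Casp1*-negative neurons. It was 2.86-fold lower with no overlap (log2 -1.51 ± 0.11, adjusted p = 0.0055), and it was called without each pool in turn. *Shb*, an SH2 adaptor, was at 0.377 ± 0.149 RPKM (SD) against 2.35 ± 0.411 (log2 -2.41, adjusted p = 0.0072). *Ackr3*, a scavenging chemokine receptor, was at 0.160 ± 0.119 against 1.19 ± 0.141 (-2.42, 0.009). *Rgs9*, a regulator of G protein signalling, was at 3.69 ± 0.813 against 14.2 ± 3.19 (-1.91, 0.0062), but it missed the threshold in excitatory neurons alone (-1.25, adjusted p = 0.078). *Nos1ap*, the adaptor of neuronal nitric oxide synthase, fell by 1.03, the cofilin kinase gene *Limk1* by 0.99 and the matrix proteoglycan gene *Podn* by 1.73 on the log2 scale. *Tnfrsf21* (death receptor 6), *Susd2*, *Rasal1* (a Ras GTPase-activating protein) and *Prkce* (protein kinase C epsilon) fell by 0.69, 0.95, 0.83 and 0.53.

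Among all neurons, 1.42% of all genes tested were called, and single glutamate receptor genes were among them. Lists of core synaptic genes held no call, which is near that share and does not show that these genes were unchanged. None of 19 genes of synaptic vesicle release was called (median log2 0.03, from -0.64 to 0.47), nor any of 13 postsynaptic scaffold and adhesion genes (0.09) or 11 GABA-A receptor genes (0.03). In excitatory neurons alone, 1 of the vesicle release genes was called lower. Another of them, the vesicle priming gene *Unc13a*, was called in neither comparison. Among all neurons it was at 140 ± 42.7 RPKM in members and 129.02 ± 38.2 in other neurons. The scaffold gene *Shank1* was at 120 ± 47.3 and 113.9 ± 40.6, and *Gabrd* of the extrasynaptic GABA-A receptor was at 28.8 ± 10.8 and 22.7 ± 4.39 (adjusted p = 0.29), although in excitatory neurons alone *Gabrd* was called higher (0.55, adjusted p = 0.023). Of 18 glutamate receptor genes, 2 were higher and 3 lower, beside 0.57% and 0.846% of all genes tested. The AMPA receptor subunit gene *Gria4* was at 58.3, 55.1, 44.4, 34.9, 44.995 and 35.96 RPKM in members against 32.7, 31.8, 28.1, 24.9, 29.96 and 26.03 (log2 0.64 ± 0.07, adjusted p = 0.0094). *Gria1*, another AMPA receptor subunit, was at 42.5, 44.9, 37.6, 34.8, 45.3 and 43.4 against 71.9, 55.4, 58.2, 64.5, 68.4 and 55.04 (-0.59 ± 0.09, adjusted p = 0.026). Both had the same direction in every pool, and the means of *Gria4* and *Gria1* did not overlap between the groups. The metabotropic receptor gene *Grm7* was higher (0.36, adjusted p = 0.046), and the kainate receptor genes *Grik3* (-1.49, 0.029) and *Grik5* (-0.25, 0.044) were lower. Without the *Ehmt1*Δ/+ 96-well pool *Gria4* missed the threshold (adjusted p = 0.055). *Gria1* missed it in excitatory neurons alone (adjusted p = 0.063), and after thinning *Gria1* (0.074), *Grm7* (0.061) and *Grik5* (0.099) missed it.

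None of the 12 activity-regulated genes tested was called, beside 1.42% of all genes tested, and their median was -0.34. *Arc*, an immediate early gene of the synapse, was at 55.7 ± 26.01 RPKM in members and 75.5 ± 45.6 in *Casp1*-negative neurons (adjusted p = 0.83), and *Egr1* was at 9.998 ± 5.60 and 14.6 ± 9.61 (0.61). Of 9 stress and p53 genes, none was called (median -0.41), with *Bax*, which promotes apoptosis, at 14.6 ± 4.14 and 14.4 ± 4.20 RPKM. Lists this short would seldom hold a call at the share over all genes, so their lack of calls does not show an absence of change.

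Of the immune genes, *Casp4* was detected more often in members. *Casp4* encodes caspase-11, the inflammatory caspase that senses intracellular lipopolysaccharide, and it lies 1563 bases downstream of *Casp1* on the same strand (chr 9, 5308828 to 5336783, with *Casp1* at 5298517 to 5307265, mm10). It was above 0 in 21 members (14.3%, exact interval 9.07% to 21.005%) and in 15 of 1517 *Casp1*-negative neurons (0.989%, 0.554% to 1.63%). By pool it was above 0 in 5 of 23, 10 of 57, 1 of 15, 4 of 33, 0 of 7 and 1 of 12 members, and in 6, 4, 2, 1, 1 and 1 other neurons (2.61%, 1.92%, 0.741%, 0.366%, 0.373% and 0.373%). Members were thus higher in 5 of 6 pools, and the pool without a positive member held 7. A full *Casp4* read or more was present in 19 members (12.9%) and 7 other neurons (0.461%), with a median of 4 reads among the positive members and 0.5 among the positive others. After thinning the shares were 9.23% and 0.439%. *Casp4* was too rare in neurons for the genome-wide fit. Reads that run past the end of *Casp1*, or that match both genes, could be counted for *Casp4*, and this was not tested. In microglia, *Casp4* was above 0 in 29 of 62 nuclei with *Casp1* and in 22 of 84 without it, and the latter were shallower (median 82995 against 506694 reads). *Casp12*, 38165 bases from *Casp1*, was above 0 in 6 members (4.08%, 1.51% to 8.67%) and 23 other neurons (1.52%, 0.963% to 2.27%), intervals that overlap.

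Of the other inflammasome genes, 6 of 14 sensors and adaptors could be tested and 1 was called, beside 1.42% of all genes tested. *Pycard*, the adaptor ASC that joins sensors to caspase-1, was above 0 in 74.1% of members and 68.8% of other neurons, at 3.01 ± 1.68 and 3.03 ± 1.38 RPKM. *Nlrp3*, the sensor best known from microglia, was above 0 in 1 member (0.680%) and 12 other neurons (0.791%), against 83.9% of *Casp1*-positive microglia. The DNA sensor *Aim2* was above 0 in 38.1% and 34.4%. The ATP-gated channel gene *P2rx7*, upstream of *Nlrp3*, was above 0 in 55 members (37.4%, 29.6% to 45.8%) and 380 other neurons (25.05%, 22.9% to 27.3%), with a higher share in 5 of 6 pools, while its mean level differed by a log2 of 0.02 ± 0.51 (SE, adjusted p = 0.99). *Nek7*, the kinase that binds NLRP3, was that gene, and it was lower (-1.43 ± 0.24, adjusted p = 0.038), but not in excitatory neurons alone (-0.41, adjusted p = 0.39) or after thinning (-1.60, adjusted p = 0.13).

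The substrates of caspase-1 were rare in members. *Il1b* was above 0 in 3 members (2.04%, 0.423% to 5.85%) and 19 other neurons (1.25%, 0.756% to 1.95%), and gasdermin D (*Gsdmd*) in 1 (0.680%) and 12 (0.791%). *Il18* was above 0 in 12.9% of members and 18.4% of other neurons, at 0.901 ± 0.589 and 1.26 ± 0.212 RPKM (adjusted p = 0.45). Of the receptor side, none of 5 tested genes of the interleukin-1 receptor family was called, beside 1.42% of all genes tested. *Il1rap*, the shared co-receptor, was above 0 in 92.5% of members and 80.8% of other neurons, at 8.96 ± 4.51 and 7.73 ± 2.52 RPKM (adjusted p = 0.72). Its mean was higher in members in 3 of 6 pools. *Il1r1* was above 0 in 23.8% and 18.98%, and its mean was higher in members in 2 of 6 pools.

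The wider immune lists had no gene called: none of 10 interferon response genes (median -0.02), 8 complement genes (0.23), 6 MHC class I genes (0.12) and 10 genes of innate signalling (-0.21). Over all genes tested 1.42% were called. Lists this short would seldom hold a call at that share, so the absence of calls does not show that these genes were unchanged. The complement protease gene *C1ra* was above 0 in 46 members (31.3%, 23.9% to 39.4%) and in 18% of other neurons (16.1% to 20.02%), with a higher share in 6 of 6 pools, at 2.10 ± 0.741 and 1.45 ± 0.612 RPKM (adjusted p = 0.48). *C1s1*, its partner, was above 0 in 17.01% and 15.7%. *B2m*, the light chain of MHC class I, was above 0 in 42.9% and 29.8%, at 4.001 ± 2.80 and 3.35 ± 3.10 RPKM (adjusted p = 0.57). Its mean was higher in members in 3 of 6 pools. In other neurons *B2m* was at 9.41 and 3.65 RPKM in 96-well plates and at 1.35 to 2.69 in 384-well plates. The shares over all pools mix these formats unequally. The T cell receptor *Cd6* was at 2.21 ± 1.29 and 1.79 ± 1.08 RPKM (adjusted p = 0.87), and the apolipoprotein L gene *Apol7b* was above 0 in 21 members (14.3%) and 66 other neurons (4.35%), though with a higher share in only 3 of 6 pools.

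Microglia genes were low in members, as in other neurons. The summed level of the 22 microglia genes was 16.7, 15.4, 10.6, 9.73, 10.2 and 10.3 RPKM in members and 16.8, 17.7, 12.3, 15.4, 10.4 and 13.3 in other neurons, so members were the lower in each pool. In microglia the sum was 4436 to 6470 RPKM by pool, and the highest single member, at 54.9, was far below the lowest single microglial nucleus, at 1897. None of the 7 microglia genes tested was called, beside 1.42% of all genes tested, and 13 of the 22 were above 0 in under 5% of members. *C1qa* and *Tyrobp*, which define microglia, were above 0 in 2 members each (1.36%). *Csf1r* (76.2% of members), *Gpr34* (44.2%) and *P2ry12* (38.1%) were detected often in members, and in 72.2%, 29.7% and 35% of other neurons. These shares mix the plate formats unequally. In other neurons *Gpr34* was at 2.89 and 3.14 RPKM in 96-well plates and at 0.337 to 1.01 in 384-well plates. Paired within pools, the mean log2 differences of the 3 genes were -0.40, -0.07 and -0.40, above 0 in 2, 4 and 1 of 6 pools. The myelin gene *Mobp* was above 0 in 79 members (53.7%, 45.3% to 61.99%) and 470 other neurons (30.98%, 28.7% to 33.4%), with a higher share in 6 of 6 pools, at 1.34 ± 0.564 and 0.678 ± 0.227 RPKM (adjusted p = 0.17). None of the 4 oligodendrocyte genes tested was called, and neither was any of 5 astrocyte or 2 endothelial genes.

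**Figure D5:**
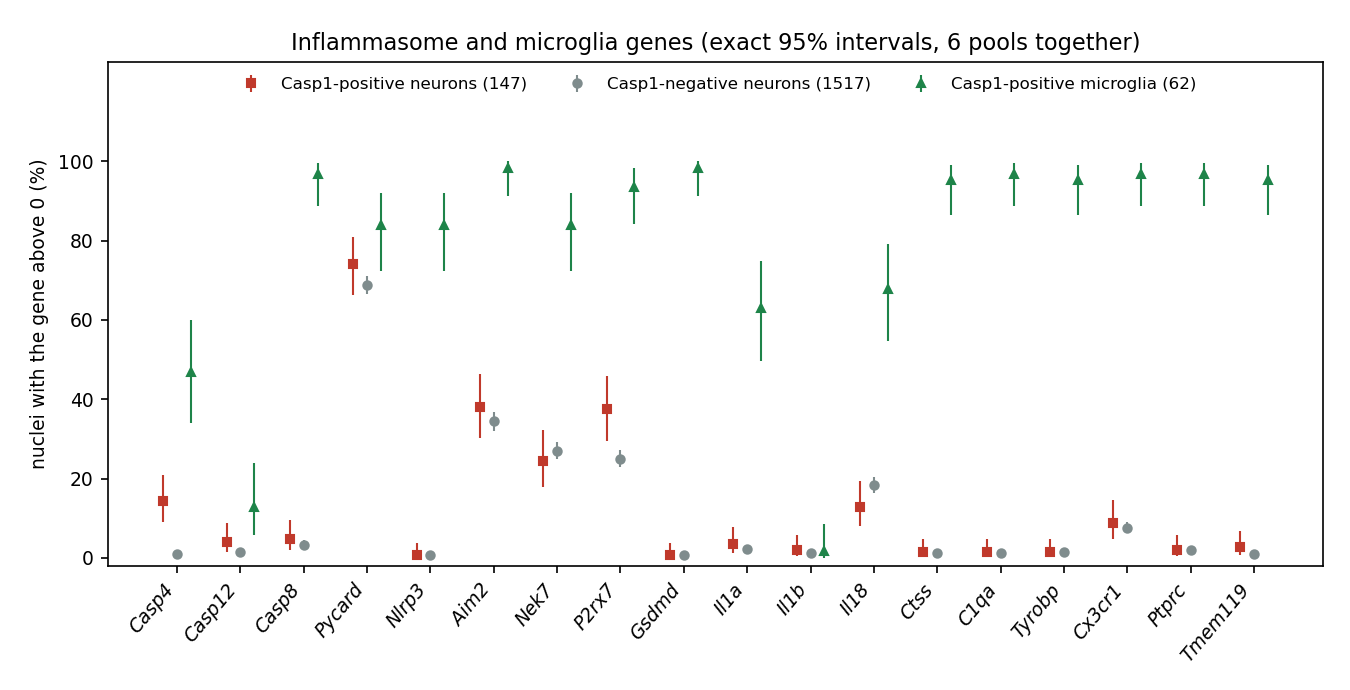
Percentage of nuclei with each gene above 0 in *Casp1*-positive neurons, *Casp1*-negative neurons (1517) and *Casp1*-positive microglia (62) of all pools together, with exact 95% intervals. *Casp4* lies at 14.3% in members and 0.989% in other neurons, whereas *Nlrp3*, *Gsdmd*, *Ctss* and *C1qa* lie under 2% in both groups of neurons and over 80% in microglia.

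None of the 5 genes on the GLP/G9a complex list was called, beside 1.42% of all genes tested. *Ehmt1* was at 18.6, 30.4, 19.2, 31.7, 24.9 and 34.1 RPKM in members and at 18.7, 31.4, 19.5, 31.7, 20.6 and 33.9 in other neurons (log2 0.03 ± 0.06, adjusted p = 0.84). The difference between pools labelled by *Ehmt1* genotype was present within members as it was in other neurons. *Ehmt2* (G9a) was at 47.5 ± 18.7 and 50.8 ± 20.9 RPKM (adjusted p = 0.46). The largest difference on the list was that of *Cdyl*, a chromodomain protein that binds this methyl mark and was singled out after its values were seen, with 3.45 against 2.16 RPKM (log2 0.59 ± 0.19, higher in 6 of 6 pools, adjusted p = 0.21).

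What accompanied *Casp1* was compared between the 3 *Ehmt1*Δ/+ pools and the 3 *Ehmt1*+/+ pools, with the plate format as a covariate. No gene of 21754 was called (0%) by limma at an adjusted p of 0.05, and 641 had an unadjusted p under 0.05. The smallest adjusted p was 0.995. The difference of the log2 values between the pools labelled *Ehmt1*Δ/+ and *Ehmt1*+/+ was -0.05 ± 0.18 (SE) for *Cux1*, 0.20 ± 0.18 for *Cux2* and -0.67 ± 0.43 for *Foxp2*, each with an adjusted p of 0.99. With 3 pools on each side these values do not show that the accompanying genes are alike in both genotypes. In members *Cux1* was higher under either label, by 0.86 to 1.27 log2 units in the pools of *Ehmt1*+/+ mice and by 0.90 to 1.10 in the *Ehmt1*Δ/+ pools. Genotype and pool cannot be told apart within a plate format, because each genotype there was 1 pool.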

How the data were processed

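Nuclei were isolated on an iodixanol gradient, sorted with DAPI into 96- or 384-well plates and sequenced after RamDA-seq, as the study's methods state. After trimming, the authors aligned reads to mm10 by HISAT2 2.0.4, counted them per gene with featureCounts (Subread 1.5.0) and a Gencode annotation, removed poor nuclei and assigned cell types from clusters and markers. They deposited RPKM values of 52636 genes for 2207 nuclei, in 1 table per plate format, and no counts. Every value column was matched to 1 sample by name, 0 columns were left unused and no pair of nuclei held identical values.

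Groups and cell types came from the labels. Read totals were recovered from RPKM and the GENCODE M21 gene lengths (49121 genes matched). At these lengths 69.1% (96-well) and 73.4% (384-well) of values above 0 were whole reads within 0.001, and the rest were not. Reads divided between genes could give this, but it was not tested. The study's methods give default counting parameters and another Gencode version. No count model was therefore used. Neurons had medians of 323273 to 397880 reads by pool, and the precision of a pool mean is set by the number of its members, 7 to 57.

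RPKM was averaged over the members and over the other neurons of each pool, and log2(mean + 0.1) was compared by limma 3.58.1 (R 4.3.3) with a trend and the pool as a block. Adding 0.1 understates the change of low genes. Genes above 0 in at least 10% of the neurons of each pool were tested, *Casp1* excepted. Adjusted p-values are Benjamini-Hochberg values over all genes tested. Single measures were compared by two-sided exact sign-flip permutation tests over 6 pools. Shares carry exact Clopper-Pearson intervals at 95% over nuclei, which share mice and pools. Shares over all pools mix plate formats: members were 80 of 518 neurons in 96-well plates and 67 of 1146 in 384-well plates. P-values measure the spread between pools only. Thinning drew 291080 reads per nucleus (96-well, 52 neurons left out) and 181912 reads (384-well, 115 left out). The other tools were SciPy 1.17.1, pandas 2.3.3 and numpy 2.4.6 under Python 3.11.15.

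The genes named are the 12 highest and 12 lowest by moderated t with 1 sign in all 6 pools and a symbol of their own, the called members of 28 gene lists (or else those with the highest means), list members detected in *Casp1*-positive neurons, genes within 500 kb of *Casp1*, and genes named by the study or earlier work. *Lhx2*, *Calb1*, *Otof*, *Wfs1* and *Fezf2* are further marker genes. The members and lists were chosen with earlier results of these data known. On simulated data with 50 genes changed per size among 21754, 9 were recovered by the paired fit where the log2 change was 0.5, 26 where it was 1, 35 for a change of 2 and 47 for 4, with 8 unchanged genes called too. Some genes meeting these rules are not reported here. Alternatives to each choice are given in the closing section.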

Additional observations from a re-analysis of the deposited data

Results flagged for a closer look

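In 11 of the results checked over the 6 pools (7.19%), 1 pool stood apart from the other 5 by Dixon's criterion, which chance meets in about 5% of groups. The values are log2 differences between *Casp1*-positive and *Casp1*-negative neurons of that pool. In 7 of the 11 the pool was iTg, which held 7 members: *Rgs9* (-1.08, others -2.24 to -1.85), *Nos1ap* (-1.49, others -1.02 to -0.80), *Cfb* (0.68, others -0.48 to -0.09), *H2-D1* (-0.61, others 0.24 to 0.60), *Ehmt1* (0.28, others -0.05 to 0.01), *Scnn1a* (-4.41, others -0.20 to 1.32) and *Sulf1* (1.16, others -3.44 to -2.31). In the 384-well WT pool they were *Isg15* (-1.74, others -0.40 to 0.14), *Aif1* (-4.53, others -1.31 to 0.06) and *Mobp* (1.92, others 0.35 to 0.87). In the 384-well *Ehmt1*Δ/+ pool it was *Shb* (-3.23, others -2.46 to -2.10).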

How the results depend on the processing

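The calls of the genome-wide comparison moved more with the processing than their directions. Beside 1.42% of 21754 genes, the calls were 2.90% of the genes tested from the mean of log2(RPKM + 1), 0.405% without the trend, 1.10% (491 genes) without a filter on low values, 4.62% with pools weighted by their nuclei, 0.490% after thinning and 0.225% with at least 2 *Casp1* reads required. They were 0.731% without any nucleus in which a microglia gene was above 0, which left 1 to 6 members per pool and moved the median of all genes to -0.49. Settings added after the data had been seen gave 0.317% in excitatory neurons with *Cux2*, 0.101% in those with *Rorb* (median of all genes -0.22) and 2.66% without the CamKII-CreER pools. Leaving out each pool in turn gave 0.0781% to 2.48%. The pool as replicate block pairs members with other neurons of the same mice and plates. With no replicate block the calls were 0.285% (62 genes). Dropping the block or trend or changing the filter leaves each log2 difference unchanged, so these settings do not bear on direction. Every called gene kept its direction with 1 added and with weights. Direction was kept by all but 2 of the called genes in excitatory neurons, which are most of the same nuclei. It was kept by all but 43 (86.04% kept) without nuclei with a microglia gene. Of the genes named, *Stard8* (-0.63) and *Nek7* (0.17) reversed in *Rorb*-positive excitatory neurons, and *Cacna2d3* (-0.16), *Bmp1* (-0.57) and *Lamp5* (-0.56) reversed without nuclei with a microglia gene. The cause was not tested. The read total passed its test with at least 2 *Casp1* reads (log2 0.15), a selection that itself favours deeper nuclei. The comparison by *Ehmt1* label gave 0 calls in each of its 4 alternatives, with 710 to 1030 genes at an unadjusted p under 0.05. *Casp1* is counted in 1 or 2 reads in most members, which limits who is detected as one.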
